A study of Mus musculus with 4 samples.

Results

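The laminins, the nidogens, perlecan, agrin and Sparc are the main non-collagen components of the vascular basement membrane (BM), and their genes were read in endothelial cells (ECs) sorted from the dura mater and from the brain of mice. The members were 10 genes chosen by symbol (Lama4, Lama5, Lamb1, Lamb2, Lamc1, Nid1, Nid2, Hspg2, Agrn and Sparc) out of 23282 symbols listed in the count tables, and all 10 were found. They were also all among the 9347 genes that passed the filter on low counts. The study asked how dura mater ECs differ from brain ECs at the level of RNA. Both groups were of the C57BL/6J strain and aged 8 weeks, with no treatment or altered gene given in the labels, and there were 2 libraries of dura mater ECs and 2 of brain ECs. The tissues were digested with collagenase and dispase, red cells were lysed, and cells carrying CD31 but neither CD45 nor TER-119 were isolated by fluorescence-activated cell sorting, after magnetic enrichment for CD31 in the case of the brain only. Whether the libraries of a tissue came from different mice is not stated, so the p-values measure only the spread between these libraries, which may be technical.

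Laminins are trimers of an α, a β and a γ chain. Many of these trimers are cross-shaped and polymerise into a sheet next to the endothelium. Nidogens link this sheet to the network of type IV collagen, while perlecan (Hspg2) and agrin (Agrn) carry heparan sulfate chains that bind growth factors and anchor the sheet to the collagen network and to cell surface receptors. Sparc is a secreted glycoprotein that binds collagen and calcium and takes part in BM assembly. In brain vessels the BM lies between the endothelium, the pericytes and the end-feet of astrocytes, and agrin is known as a prominent component of it.

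The library totals lay between 13518973 and 16096203 counts. Each of the 12 pan-endothelial markers held at least 197 counts in every library, and their summed level was 10636 to 14077 CPM (counts scaled to the size of the library) in brain ECs and 9770 to 12578 CPM in dura mater ECs. Within each tissue many genes were counted in only 1 of the 2 libraries. Of the genes tested, 24.6% had 7 or fewer counts in 1 brain library and 64 or more in the other, and 18.0% did so between the dura mater libraries. Red cell genes, such as those of the haemoglobins, summed to 26281 and 37611 CPM in the brain libraries and to 2177 and 1113 CPM in the dura mater libraries. Of the 7 listed, 5 (Hba-a1, Hbb-b1, Hbb-b2, Hbb-bs and Hbb-bt) were lower in dura mater ECs (edgeR adjusted p = 0.0248 each). Reads of these multigene families may be split between near-identical copies or counted under more than 1 symbol, which was not tested. Hbb-b1 and Hbb-bs had nearly equal counts, such as 110614 and 111254 in brain replicate 1, so the sums and calls may repeat the same reads.

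The stretches upstream of 4 members are shown here, since Lamb1, Nid1 and Hspg2 were higher in both dura mater libraries than in both brain libraries, whereas Agrn had its highest level in a brain library. Each runs from 250 to 61 bases before the RefSeq start of the gene (GRCm38.p6), 5′ to 3′ on the strand of the gene, and capitals mark the GC box GGGCGG or its reverse complement CCGCCC, the letters bound by Sp-family transcription factors. Lamb1 lies on the plus strand at chr12:31265043-31265232, Nid1 on the plus strand at chr13:13437352-13437541, Hspg2 on the plus strand at chr4:137468553-137468742 and Agrn on the minus strand at chr4:156197549-156197738.
Lamb1: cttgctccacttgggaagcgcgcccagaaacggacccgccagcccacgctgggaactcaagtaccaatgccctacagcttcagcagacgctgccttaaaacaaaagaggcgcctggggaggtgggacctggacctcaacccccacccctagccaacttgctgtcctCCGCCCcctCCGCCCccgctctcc
Nid1: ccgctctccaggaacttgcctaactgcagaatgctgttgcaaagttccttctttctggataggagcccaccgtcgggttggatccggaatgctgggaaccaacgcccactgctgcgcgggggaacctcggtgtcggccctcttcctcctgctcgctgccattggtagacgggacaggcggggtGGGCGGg
Hspg2: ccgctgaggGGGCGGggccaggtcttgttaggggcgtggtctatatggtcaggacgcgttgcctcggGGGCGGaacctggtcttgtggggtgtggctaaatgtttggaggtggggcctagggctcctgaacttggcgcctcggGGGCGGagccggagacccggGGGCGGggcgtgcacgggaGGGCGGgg
Agrn: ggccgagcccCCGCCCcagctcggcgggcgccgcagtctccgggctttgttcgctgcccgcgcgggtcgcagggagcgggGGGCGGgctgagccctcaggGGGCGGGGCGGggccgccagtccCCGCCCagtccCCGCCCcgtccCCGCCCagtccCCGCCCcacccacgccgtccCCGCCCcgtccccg
The printed stretch of Agrn holds 9 such matches, that of Hspg2 5, that of Lamb1 2 and that of Nid1 1. RefSeq start windows were found for 7 of the 10 members (8 windows, as Agrn has 2), and none was given for Lama4, Lamc1 and Nid2. Over the 250 bases before the start and both strands, GGGCGG occurred in 6 of the 8 windows, against 32.7% of 32851 mouse windows of this length. CCAAT occurred in 2 of the 8 (33.8% of all windows) and TATAAA in 0 (12.4%). The windows of the 4 genes shown were 62.0% (Lamb1), 64.4% (Nid1), 70.0% (Hspg2) and 83.6% (Agrn) G or C, while the median of all windows was 52.4%. Of the windows not shown, that of Lama5 (72.4%) and the other one of Agrn (60.8%) held GGGCGG. The windows of Lamb2 (43.6%), also higher in both dura mater libraries, and of Sparc (54.0%) held 0 matches. A match of letters is a description of the sequence and was not tested for binding.

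By edgeR's quasi-likelihood test with Benjamini-Hochberg adjustment, 0 of the 10 members passed an adjusted p under 0.05 between dura mater and brain ECs, where 0.610% of the genes tested did. Limma-voom called 0 as well (0.856% of genes), and DESeq2 called 1, Nid1 (9.02% of genes). At an unadjusted p under 0.05, edgeR counted 1 member, Hspg2, while 936 of the 9347 genes tested (10%) passed that limit. The log2 fold change of dura mater over brain was above 0 for 6 members and below 0 for 4, and its median was 0.33 over the members and -0.01 over all genes tested. For 5 members (Lamb1, Lamb2, Lamc1, Nid1 and Hspg2) both dura mater libraries lay above both brain libraries, an order found in 26.2% of the genes tested. The opposite order was found in 0 members and in 16.9% of the genes tested. The spread between the libraries of a tissue was large, with a biological coefficient of variation of 1.39 over all genes.

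**Figure D1:**
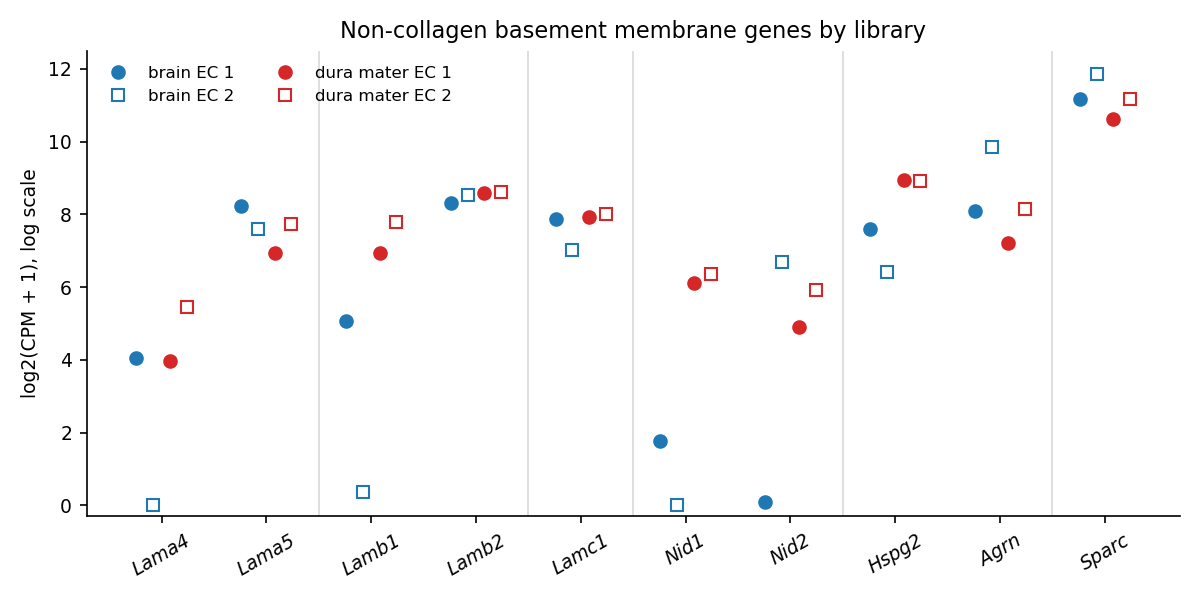
Level of each member in each library, as log2(CPM + 1), with brain ECs in blue and dura mater ECs in red; filled circles are replicate 1 and open squares replicate 2. Lamb1, Nid1 and Hspg2 have both red points above both blue points with a clear gap, while Lama4, Lamb1, Nid1 and Nid2 have 1 blue point near 0.

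Among the α chains, neither of the chains made by endothelium passed the test between the tissues. Lama5, on chromosome 2 (180176373 to 180225859, GRCm38), encodes the α5 chain, which is found mainly in the BM of mature capillaries and arterioles. It had 4352 and 2592 counts in the brain libraries, against 1657 and 3495 in those of the dura mater, so the groups overlapped. Its level was 246 ± 73.1 CPM (SD, n = 2) in brain ECs and 167 ± 63.4 CPM (SD, n = 2) in dura mater ECs, giving -0.55 on the log2 scale (SE 0.54, edgeR adjusted p = 0.968). Lama4, on chromosome 10 (38965515 to 39110188), encodes the α4 chain, which endothelium lays down along the whole vascular tree. It had 228 and 0 counts in the brain libraries, against 197 and 703 in those of the dura mater. Brain replicate 1 therefore lay above dura mater replicate 1, and the difference of 1.86 on the log2 scale (SE 3.14, edgeR adjusted p = 1.00) was smaller than its error. It changed with the library left out, being 7.67 without brain replicate 1 and 0.79 without brain replicate 2. Without dura mater replicate 1 it was 2.30, and without dura mater replicate 2 it was 0.87. By limma-voom it was 5.16. Lama4 made up 4.98% of the Lama4 and Lama5 counts in brain replicate 1 (95% Wilson interval 4.39 to 5.65) and 0 of 2592 counts in brain replicate 2, which allows a share of up to 0.116%. In dura mater ECs its share was 10.6% (9.30 to 12.1) and 16.7% (15.6 to 17.9), above both brain libraries. These intervals and limits cover counting error only.

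Of the 5 laminin chains among the members, Lamb1 had the largest fold change between the tissues. Lamb2, on chromosome 9 (108479736 to 108490530), encodes the β2 chain. It had 4599 and 4919 counts in the brain libraries, against 5216 and 6482 in those of the dura mater. Its level was 342 ± 38.2 CPM (SD, n = 2) in brain ECs and 390 ± 5.67 CPM (SD, n = 2) in dura mater ECs, and the libraries stood close together (log2 fold change 0.19, SE 0.38, edgeR adjusted p = 1.00). Lamb1, on chromosome 12 (31265234 to 31329644), encodes the β1 chain, the partner of α4 and α5 in the common endothelial laminins. It had 472 and 4 counts in the brain libraries, against 1647 and 3600 in those of the dura mater, so that both dura mater libraries were above both brain libraries. The mean level was 16.3 ± 22.6 CPM (SD, n = 2) in brain ECs and 170 ± 68.5 CPM (SD, n = 2) in dura mater ECs, which is a ratio of means of 10.4. The log2 fold change of 3.37 (SE 1.80) did not pass the test (edgeR adjusted p = 0.588). As a share of the Lamb1 and Lamb2 counts, Lamb1 was 9.31% (8.54 to 10.1) and 0.0813% (0.0316 to 0.209) in the brain libraries and 24.0% (23.0 to 25.0) and 35.7% (34.8 to 36.6) in the dura mater libraries. Summed over both β chains, the level was 347 and 369 CPM in brain ECs and 507 and 612 CPM in dura mater ECs.

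Lamc1, on chromosome 1 (153218922 to 153332786), encodes the γ1 chain that most laminin trimers share. It had 3437 and 1722 counts in the brain libraries, against 3302 and 4270 in those of the dura mater. On the CPM scale brain replicate 1 (235 CPM) lay just below dura mater replicate 1 (244 CPM), and the log2 fold change was 0.47 (SE 0.52, edgeR adjusted p = 0.995). Without brain replicate 2 the fold change fell to 0.03, in a fit where the median of all genes was 0.95, so the difference in Lamc1 rested on that library. The 5 laminin chains together reached 895 and 692 CPM in brain ECs and 888 and 1126 CPM in dura mater ECs, so their summed levels overlapped. The genes with the profile most like that of Lamc1 over the 4 libraries were Bptf, Rxra and Atp5b, at a Euclidean distance of 0.0995, 0.117 and 0.118 in centred log2 CPM. Among the 4786 genes ranked, Lamb2 came at position 590, Lama5 at 1344, Hspg2 at 1761, Sparc at 2157 and Agrn at 3773, and the 4 other members had fewer than 10 counts in a library and were not ranked.

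**Figure D2:**
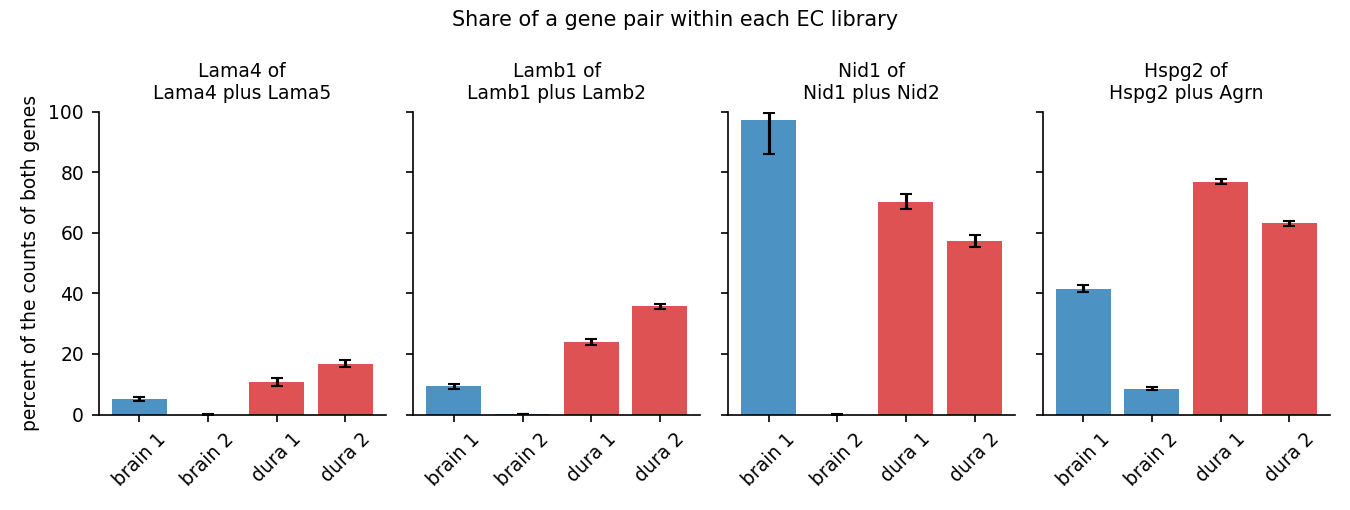
Share of the counts of a gene pair taken by the first gene, in percent, in each of the 4 libraries (blue, brain ECs; red, dura mater ECs); error bars are 95% Wilson intervals and cover counting error only. The shares of Lama4, Lamb1 and Hspg2 are higher in both dura mater libraries than in both brain libraries, while that of Nid1 runs from 97.2% to 0 in the brain libraries.

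The nidogens were uneven between the brain libraries, where Nid2 had the widest gap of the 10 members. Nid1 (nidogen-1), on chromosome 13 (13437551 to 13512269), had 35 and 0 counts in the brain libraries, against 932 and 1329 in those of the dura mater. Its level was 1.20 ± 1.69 CPM (SD, n = 2) in brain ECs and 74.8 ± 8.35 CPM (SD, n = 2) in dura mater ECs, and the dura mater libraries differed little. With a log2 fold change of 5.81 (SE 2.68), this was the largest difference of the 10 members, and it did not pass the main test (edgeR adjusted p = 0.492). DESeq2 gave 5.88 with an adjusted p of 0.0368. Nid2 (nidogen-2), on chromosome 14 (19751265 to 19811787), had 1 and 1364 counts in the brain libraries, against 394 and 987 in those of the dura mater. The brain libraries thus lay on either side of the dura mater libraries, and the difference of -0.20 on the log2 scale (SE 2.35, edgeR adjusted p = 1.00) changed sign with the brain library that was left out. Nid1 made up 97.2% (85.8 to 99.5) of 36 nidogen counts in brain replicate 1 and 0 of 1364 in brain replicate 2, which allows up to 0.220%. In the dura mater libraries it made up 70.3% (67.8 to 72.7) and 57.4% (55.4 to 59.4). The summed nidogen level was 2.46 CPM in brain replicate 1 and 102 CPM in brain replicate 2, against 98.0 and 141 CPM in dura mater ECs. Genes annotated on the other strand cover 2.06% of the exons of Nid1 (Gm48682) and 8.45% of those of Nid2 (Rtraf), and since the use of strand in counting is not stated, counts in these stretches are uncertain.

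Perlecan and agrin, the proteoglycans of the group, had fold changes of opposite sign. Hspg2, on chromosome 4 (137468769 to 137570630), had 2801 and 1135 counts in the brain libraries, against 6676 and 7972 in those of the dura mater. Both dura mater libraries lay far above both brain libraries, at 489 ± 6.66 CPM (SD, n = 2) against 138 ± 75.3 CPM (SD, n = 2), a ratio of means of 3.53. The log2 fold change of 1.82 (SE 0.53) was the largest of the 10 relative to its error, but did not pass after adjustment (edgeR adjusted p = 0.340). Agrn, also on chromosome 4 (156165290 to 156197488), had 3952 and 12259 counts in the brain libraries, against 2010 and 4643 in those of the dura mater. Brain replicate 2, at 919 CPM, stood above the other libraries (149 to 282 CPM), and brain replicate 1 (270 CPM) lay within the range of the dura mater libraries. The log2 fold change of Agrn was -1.46 (SE 0.67, edgeR adjusted p = 0.489). Perlecan took 41.5% (40.3 to 42.7) and 8.47% (8.01 to 8.96) of the Hspg2 and Agrn counts in brain ECs, and 76.9% (76.0 to 77.7) and 63.2% (62.3 to 64.03) in dura mater ECs. Agrn counts thus exceeded Hspg2 counts in both brain libraries, and Hspg2 counts exceeded Agrn counts in both dura mater libraries. The summed level of both genes overlapped, at 462 and 1004 CPM in brain ECs and 642 and 766 CPM in dura mater ECs.

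Since a ratio within a library does not depend on how libraries are scaled, the log2 ratio (counts + 1) of each of 4 pairs was compared between the tissues by an exact two-sided permutation test. The ratio was higher in dura mater than in brain ECs by 5.11 for Lama4 to Lama5, by 5.36 for Lamb1 to Lamb2 and by 3.22 for Hspg2 to Agrn, and for these the groups did not overlap (exact permutation p = 0.333 each, 0.444 adjusted over the 4 pairs). For Nid1 to Nid2 it was higher by 3.96 on average, with overlap (exact permutation p = 1). The sizes rested on the brain libraries. Without brain replicate 1 the differences were 8.65 for Lama4 to Lama5, 8.69 for Lamb1 to Lamb2, 4.69 for Hspg2 to Agrn and 11.25 for Nid1 to Nid2, and without brain replicate 2 they were 1.56, 2.03, 1.75 and -3.33 in the same order. With 2 libraries against 2, an exact two-sided p cannot fall below 0.333, so none of these differences could pass.

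Sparc, on chromosome 11 (55394500 to 55423183), was the most counted member in each library. It had 33974 and 49350 counts in the brain libraries, against 21201 and 38352 in those of the dura mater, or 3011 ± 972 CPM (SD, n = 2) and 1948 ± 538 CPM (SD, n = 2). Brain replicate 1 and dura mater replicate 2 were almost equal, at 2323 and 2329 CPM, so the groups overlapped. The log2 fold change was -0.63 (SE 0.35, edgeR adjusted p = 0.623). Per kilobase of annotated exon, Sparc reached 414 to 976 CPM per kb, while Agrn, the member with the next highest value in any library, reached at most 98.9 and Lama4 at most 3.54. The sources do not settle whether counts grow with transcript length in these libraries, so this order between genes depends on that scaling.

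**Figure D3:**
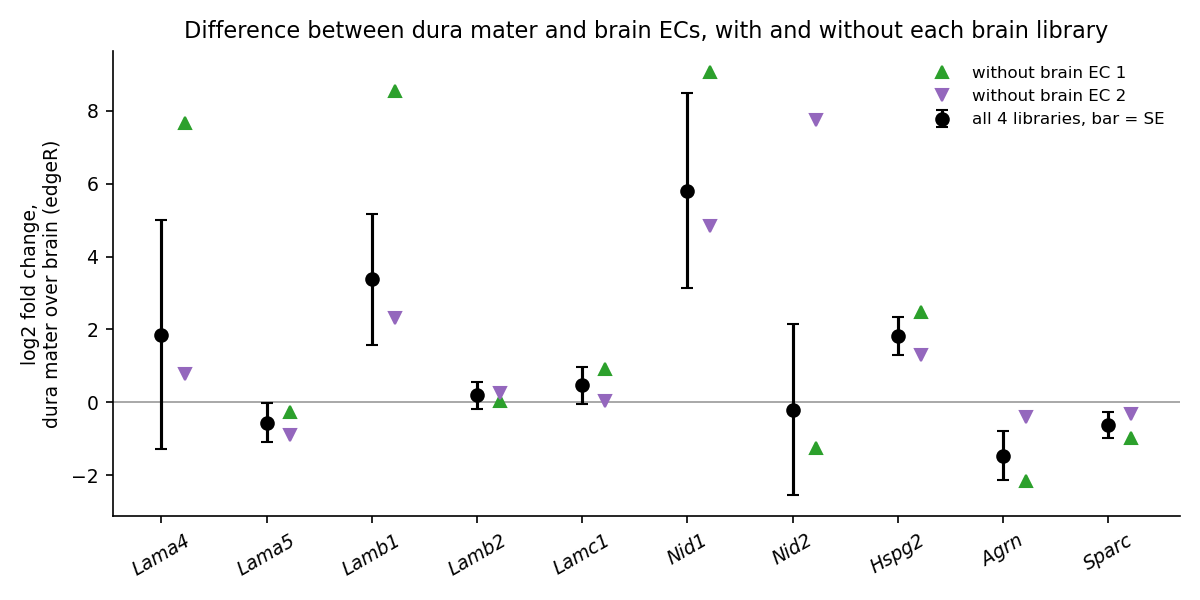
Log2 fold change of dura mater over brain ECs for each member from edgeR on all 4 libraries (black, bars are SE), and without brain replicate 1 (green) or brain replicate 2 (purple). For Nid2 the purple point (7.74) and the green point (-1.26) lie on either side of 0, whereas Hspg2, Lamb1 and Nid1 stay above 0 and Agrn below 0.

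The calls depended on the brain libraries. Without brain replicate 1, edgeR called 4 of the 10 members, where 6.38% of genes were called: Lamb1 (log2 fold change 8.56, adjusted p = 6.86e-09), Nid1 (9.07, adjusted p = 0.00097) and Hspg2 (2.47, adjusted p = 0.00154) were higher in dura mater ECs, and Agrn (-2.15, adjusted p = 0.000455) was lower. Without brain replicate 2 it called 0 of the 10, where 6.05% of genes were called, and the fold changes were 2.32 for Lamb1 (adjusted p = 0.104), 4.83 for Nid1 (0.15), 1.29 for Hspg2 (0.185) and -0.40 for Agrn (0.808). In these fits the lone brain library is assumed to vary like the dura mater libraries. The median of all genes was itself shifted in these fits, to 1.03 and 0.95, over 11591 and 11596 genes, where the main fit tested 9347. The direction of these 4 genes held in both, but each difference was smaller without brain replicate 2 than without brain replicate 1. That of Agrn rested on brain replicate 2, and without that library the 1.29 of Hspg2 lay near the 0.95 median of all genes.

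The members varied more between the brain libraries than between the dura mater libraries. The gap between replicates was larger in brain ECs for 9 of the 10 members, Lama5 being the exception, and for 58.6% of all genes tested. Its median was 1.47 log2 CPM over the members for the brain and 0.68 for the dura mater, beside 1.43 and 1.14 over all genes tested. The largest gap was that of Nid2 in brain ECs (8.95 log2 CPM, against 1.04 in dura mater ECs), followed by Lama4 (6.83 against 1.54), Lamb1 (6.21 against 0.84) and Nid1 (4.20 against 0.23). Hspg2 differed by 1.17 log2 CPM between the brain libraries and by 0.03 between the dura mater libraries. Of the members, 3 (Lama4, Lamb1 and Nid2) had 7 or fewer counts in 1 brain library and 64 or more in the other, near the share of 24.6% among all genes, and 0 did so in dura mater ECs.

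**Figure D4:**
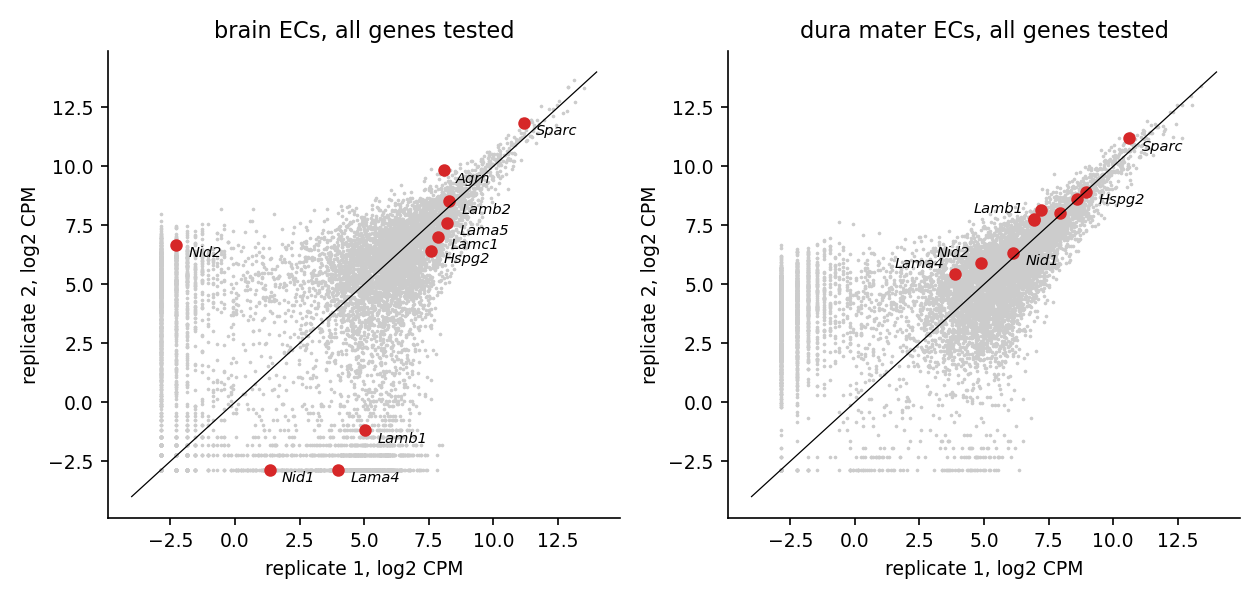
Replicate 1 against replicate 2 in log2 CPM for brain ECs (left) and dura mater ECs (right), with all genes tested in grey, the members in red (6 of the 10 named on the right) and the line of equality in black. In brain ECs Nid2, Lama4, Lamb1 and Nid1 lie far from the line, and in dura mater ECs all 10 members lie within 1.54 log2 units of it.

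Among the partners of the members in the BM, 1 collagen passed the test. All 4 tested collagens of the BM list (8 genes) had a log2 fold change above 0, with a median of 1.16. Col15a1, a collagen of the outer face of vascular BMs, was absent from the counts of brain ECs (0 in both libraries) but had 2872 and 5366 in those of the dura mater, at least 1252-fold higher when set against 3 counts per brain library (edgeR adjusted p = 0.0248). Col4a1 and Col4a2, the chains of the type IV collagen network to which nidogens tie the laminin sheet, were also higher in both dura mater libraries in CPM. Col4a1 had 7384 and 6836 counts in the brain libraries, against 7562 and 16010 in those of the dura mater (log2 fold change 0.59, edgeR adjusted p = 0.760), and Col4a2 had 4459, 5831, 7660 and 12508 counts in the same order (0.84, edgeR adjusted p = 0.497).

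Of the 6 other laminin chains, 2 were tested and 0 passed. Lama1 and Lama3, like Lamc3 chosen after their values were seen, are the genes of the α1 and α3 chains. Lama1 had 358 and 147 counts in the dura mater libraries and 0 in those of the brain, at least 82.3-fold higher against 3 counts per brain library (edgeR adjusted p = 0.466). Lama3 had 968, 903, 77 and 1103 counts, with overlap, and Lamc3 had 310 counts in brain replicate 2 and 0 in the other libraries.

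Of the 17 other BM proteins, 9 were tested, 4 with a fold change above 0 and 5 below, and 0 passed (median -0.50). Of the 15 receptors of laminins and matrix, 13 were tested, 8 above 0 and 5 below, and 0 passed (median 0.42). Dag1, dystroglycan, which binds the α chains, agrin and perlecan, had 2321 and 4124 counts in the brain libraries, against 2613 and 2853 in those of the dura mater, with a log2 fold change of -0.35 (edgeR adjusted p = 1.00). Itgb1, the β1 subunit shared by most laminin-binding integrins, had 14312 and 9468 counts in the brain libraries, against 15639 and 18107 in those of the dura mater (log2 fold change 0.42, edgeR adjusted p = 0.873). Of the 25 enzymes of heparan sulfate synthesis and matrix assembly, 20 were tested, 14 above 0 and 6 below, and 0 passed (median 0.62).

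**Figure D5:**
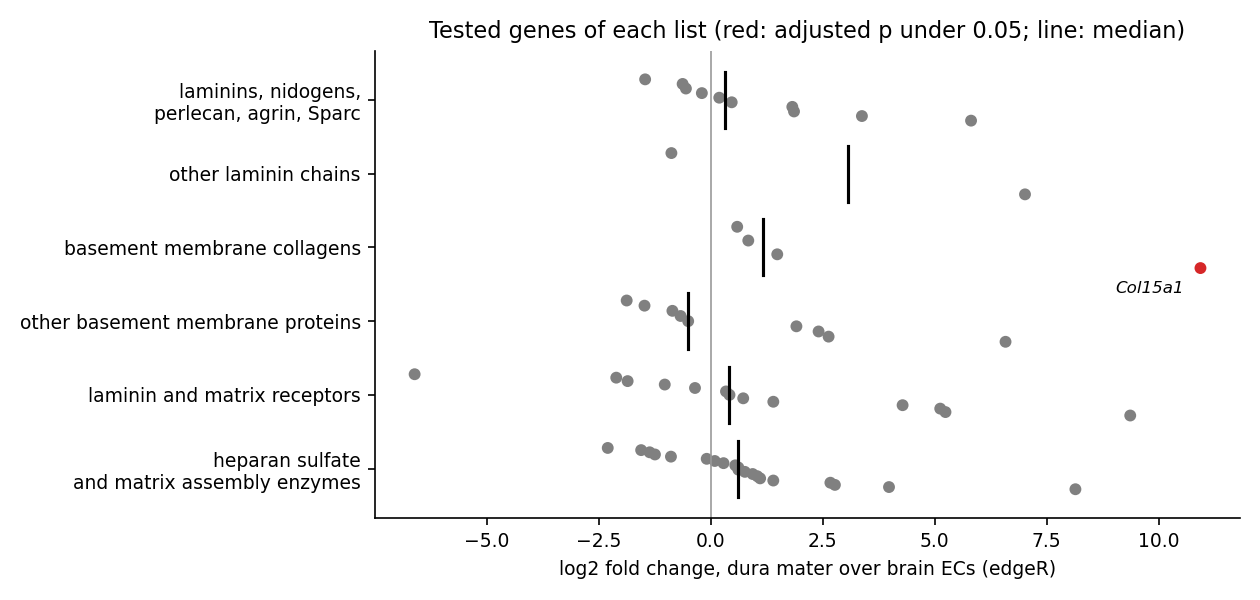
Log2 fold change of dura mater over brain ECs (edgeR) for each tested gene of the members and of 5 lists of related genes; black lines are medians and red marks an adjusted p under 0.05. Col15a1 is the only red point.

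Cells other than endothelium also make these proteins, and in bulk RNA fewer cells of a type and less RNA per cell cannot be told apart. Fibroblast markers summed to 7.32 and 50.5 CPM in brain ECs and 378 and 351 CPM in dura mater ECs, and all 4 tested of the 10 had a fold change above 0, while Pdgfra had at most 1 count in a library, and Slc6a13 and Fap had 0. Pericyte markers summed to 96.2 and 141 CPM in brain ECs and 223 and 384 CPM in dura mater ECs, with 8 of 10 tested above 0 in fold change. Smooth muscle markers overlapped, at 742 and 1150 CPM against 1190 and 500.2 CPM. Astrocyte markers summed to 51.2 and 7.87 CPM in brain ECs and 415 and 159 CPM in dura mater ECs, with Aqp4 at 0 in each library. Most of each sum was Gja1 alone, at 50.8 and 7.72 CPM against 269 and 149 CPM. Slc1a2 and Slc1a3 had at most 1 count in a brain library and 74 to 915 in the dura mater libraries. Aldh1l1 had at most 1 count in a library, and Gfap had 189 counts in dura mater replicate 1 and 0 in replicate 2. Lymphatic endothelial markers summed to 122 and 143 CPM in brain ECs and 280.1 and 362 CPM in dura mater ECs. Nearly all of the brain sums was Flt4 (122 and 143 CPM), which blood endothelium can also express. Lyve1 (911 and 1776 counts) and Prox1 (492 and 125 counts), named after their values were seen, were counted in the dura mater libraries and had 0 counts in both brain libraries. Pdpn, the other marker of this sum and likewise named afterwards, overlapped between the tissues and was not tested. It reached at most 7 counts per brain library, 3 in dura mater replicate 1 and 45 in dura mater replicate 2. Osteoblast markers (104 to 165 CPM), leukocyte markers (29.1 to 49.6 CPM) and Schwann cell and oligodendrocyte markers (32.2 to 134 CPM) overlapped between the tissues in sum. Most of the osteoblast sum was Alpl, at 147 and 104 CPM in brain ECs and 90.7 and 134 CPM in dura mater ECs. Runx2 had 820 counts in dura mater replicate 1 and 0 in replicate 2, and Ibsp 181 and 11, against at most 1 in a brain library. Cd68 had 550 and 441 counts in dura mater ECs and at most 4 in a brain library. Csf1r and C1qa had 646 and 436 counts in 1 brain library each and at most 28 in a dura mater library. Neuron markers summed to 0.957 and 0.225 CPM in the brain libraries, against 20.8 and 6.01 CPM in those of the dura mater. The fibroblast, pericyte, astrocyte, neuron and lymphatic sums were thus higher in both dura mater libraries, as were Lamb1, Nid1 and Hspg2, and their part in those differences was not tested.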

How the data were processed

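RNA from sorted dura mater ECs and brain ECs, 2 libraries each, was sequenced by the authors, who deposited 1 table of raw counts per gene symbol and library. The methods of the study name TopHat for mapping and cufflinks for expression. The submitters' processing notes name Bowtie2, edgeR and mm10 without a role. How the counts were made, their annotation and the use of strand are not given in the sources used here.

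Groups and replicate numbers were taken from the titles, and the column headers of the tables carry other numbers, so same-numbered libraries are matched by title only. Genes kept by filterByExpr were tested on the deposited counts with edgeR 4.0.16 (quasi-likelihood, TMM scaling, R 4.3.3), with Benjamini-Hochberg adjustment over all 9347 genes tested and a threshold of 0.05. This replaces cufflinks, which needs alignments. A prior count of 2 entered the log2 fold changes (dura mater over brain), whose SE is their size over the root of F. CPM uses TMM-scaled totals. DESeq2 1.42.0, limma-voom (limma 3.58.1), other scalings and filters, a replicate block and leaving out each library were alternatives. Scripts were tested on simulated data. With 13518973 to 16096203 counts per library, precision was limited by the spread between libraries.

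The members and gene lists were chosen with earlier results of these data known. Named were the 10 members, listed genes with an adjusted p under 0.05, Col4a1, Col4a2, Dag1, Itgb1 and the 3 genes most like Lamc1. Each marker list was summed in CPM. 1 listed lymphatic gene that stood on several lines was left out. Positions are from GENCODE M21 (GRCm38), and start windows from RefSeq (GRCm38.p6).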

Additional observations from a re-analysis of the deposited data

How the results depend on the processing

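The count of genes called was 57 and became 810 with DESeq2, 306 with the newer edgeR dispersion estimate, 326 with no filter on low counts, 141 with at least 10 counts in every library, and 80 to 740 when a library was left out. Of the members, 0 were called, 1 with DESeq2 and 0 to 4 when a library was left out, 4 only without brain replicate 1. Their median log2 fold change of 0.33 became 1.22 with limma-voom and -0.12 with at least 10 counts in every library, which kept 6 members, and it was 0.23 to 0.52 when a library was left out. The median of all genes itself moved to 0.28 with limma-voom and to 1.03 and 0.95 without brain replicates 1 and 2, so the members' medians of 0.47 and 0.52 then lay below it. Lama4 (1.86) was 5.16 with limma-voom and 0.79 to 7.67 when a library was left out. Nid2 changed sign with limma-voom (3.78) and with pan-endothelial counts as library size (0.092), and ran from -1.26 to 7.74 when a library was left out. The Nid1 to Nid2 log2 ratio ran from -3.33 to 11.25 in the same way. The other 9 members kept the direction of their fold change under each alternative run. The replicate numbers, taken from the titles and not from the table headers, share no stated source, and deviations of same-numbered libraries did not correlate (r = -0.02 across genes). A replicate block gave 224 genes called, 0 members called, a members' median of 1.23, 3.98 for Lama4 and 3.06 for Nid2. The set of genes tested also changed, from 9347 to 13660 with no filter and to 4787 with at least 10 counts in every library. When a library was left out, 10054 to 11596 genes were tested. The cause of the shifts in calls and fold changes was not tested. With 2 libraries per tissue and genes counted in only 1 of them, the spread between libraries sets the precision of these comparisons.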
